A study of Mus musculus with 16 samples.

Results

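Interferon-stimulated genes are genes whose transcription rises when a cell senses interferon. A list of 34 such genes, matched to the deposited tables by exact symbol, was followed through 16 mouse liver libraries. All 34 were found among the 25803 genes of the joined tables, and 34 of 34 passed the filter on low counts that left 14488 genes for testing. The lowest count of any member in any library was 19, for Mx1.

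The libraries came from livers of male mice that had been on a high-fat diet (HFD) for 12 weeks. Control mice, called wild type in the series' design text, and mice with liver knockout of Cpt1a (LKO) were studied after a 16 h fast, or after that fast and 6 h of refeeding. Each of the 4 groups, fasted control, fasted LKO, refed control and refed LKO, had 4 libraries, and Cpt1a encodes the enzyme that commits long-chain fatty acids to mitochondrial oxidation. Strain, age and the way the knockout was made are not given in the sources used here, and nothing beyond the sample titles says that the libraries of a group came from separate animals, so the p-values measure the spread between these libraries.

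Type I and type III interferons act through JAK kinases on a complex that contains STAT2 and IRF9 and binds the interferon-stimulated response element (ISRE), while the gamma-activated sequence (GAS) is the element of the interferon gamma response. The induced genes include the transcription factors that carry the signal further, sensors of foreign nucleic acid, proteins that block viral translation or budding, and large GTPases that attack vacuoles holding microbes. In liver, hepatocytes, Kupffer cells and endothelial cells can all express them, and bulk RNA cannot tell fewer cells of a type from less RNA per cell.

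The promoters of the members carry these elements in their letters. RefSeq promoter windows (GRCm38.p6, 250 bases before to 50 bases after a start site) were at hand for 26 of the 34 members. The ISRE was searched as GAAANNGAAA and the GAS as TTCNNNGAA on both strands, and matches were allowed to overlap. An ISRE match lay in 14 of 26 members (53.8%), against 3.44% of all 32851 windows and 3.99% of the 27025 genes of the table. A GAS match lay in 8 of 26 members (30.8%), against 8.3% of windows and 9.55% of genes, and 5 members held both and 9 neither. The sequences below are the 110 bases before the start site, on the gene's own strand, with ISRE and GAS matches in capitals. They show a gene of overlapping ISRE matches (Isg15, chr4:156200819-156200928, minus strand), a gene with a pair of separate ones on the other strand (Ifit1, chr19:34640779-34640888, plus strand), and one with overlapping matches on the other strand (Gbp3, chr3:142559934-142560043, plus strand). Oas1a (chr5:120907526-120907635, minus strand) held both elements. Igtp (chr11:58199446-58199555, plus strand) and Irgm2 (chr11:58214867-58214976, plus strand) are neighbours that also held both, and Trim25 (chr11:88999293-88999402, plus strand) held neither.
Isg15: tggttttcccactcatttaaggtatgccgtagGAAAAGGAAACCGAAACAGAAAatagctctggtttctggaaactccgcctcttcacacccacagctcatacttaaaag
Ifit1: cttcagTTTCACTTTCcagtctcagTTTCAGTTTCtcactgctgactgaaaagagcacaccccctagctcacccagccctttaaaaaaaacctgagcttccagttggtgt
Gbp3: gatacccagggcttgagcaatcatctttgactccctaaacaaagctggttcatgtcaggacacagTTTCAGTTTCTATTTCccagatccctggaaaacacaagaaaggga
Oas1a: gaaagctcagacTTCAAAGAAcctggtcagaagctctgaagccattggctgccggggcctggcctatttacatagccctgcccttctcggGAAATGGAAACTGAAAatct
Igtp: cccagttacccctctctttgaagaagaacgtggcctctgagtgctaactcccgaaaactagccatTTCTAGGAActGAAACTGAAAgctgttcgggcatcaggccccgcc
Irgm2: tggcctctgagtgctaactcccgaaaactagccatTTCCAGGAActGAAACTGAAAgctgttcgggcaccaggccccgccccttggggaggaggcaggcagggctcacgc
Trim25: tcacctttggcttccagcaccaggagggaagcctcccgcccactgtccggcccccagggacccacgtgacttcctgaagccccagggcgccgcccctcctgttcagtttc
The windows of Igtp and Irgm2 share an identical stretch of 61 bases, and at that offset 184 of 270 aligned positions (68.1%) are identical. In Isg15 the 3 overlapping matches run from 78 to 57 bases before the start site. A match is a description of the letters and not of a bound site.

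Levels were compared between genes only per length, as the mean over 16 libraries of reads per kilobase per M (mega) reads (RPKM). Bst2, which encodes tetherin, a membrane protein that holds budding virions, was far above the rest at 198.7 RPKM. Isg15 followed at 26.8, Igtp at 21.99 and Irf7 at 20.8 RPKM. The lowest were Mx1 at 0.62, Ifi44 at 0.67 and Ifit2 at 0.88 RPKM.

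Depth ran from 14721601 to 24618230 counts per library. In counts per M counts (CPM), Cpt1a stood between 319 and 620 in the control libraries and between 39.9 and 126 in the LKO libraries (log2 fold change −2.28, SE 0.23, adjusted p = 1.38e-04 fasted; −3.08, SE 0.24, adjusted p = 8.23e-06 refed). The control and LKO libraries did not overlap in either state (exact permutation test, two-sided, p = 0.0286 in each, the smallest that 4 against 4 allows). Adjusted p-values here and below are from the quasi-likelihood test of edgeR, adjusted by Benjamini-Hochberg over the 14488 genes, and a gene is called when its value is under 0.05.

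One library stood apart on the interferon-stimulated genes. In the fasted LKO library S47 all 34 members were at their highest of the 4 fasted LKO libraries, whereas 27.1% of all genes tested had their highest value there. For 25 of the 34 it was the highest of the 16 libraries. The mean deviation of the members from each gene's own mean (log2 CPM, over 16 libraries) was 0.65 in S47 and −0.03, −0.07 and −0.12 in S44, S45 and S46. Set against the mean of those 3, the members in S47 were higher by a median factor of 1.65, from 1.03 for Ifi35 to 2.68 for Ifi44, and by 2.45 for Rsad2 and 2.32 for Oas2. A broader list of 81 other interferon-induced genes showed the same library at the top for 59 of them (72.8%), with a mean deviation of 0.50. Results that rest on fasted LKO are therefore given with and without S47.

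The refed libraries varied too. S49 was the lowest of the refed control libraries for 19 of 34 members, against 30.2% of all genes, with a mean deviation of −0.45 where the other three lay at −0.25, −0.05 and −0.06. S52 was the highest of the refed LKO libraries for 19 of 34 members, against 27.4% of all genes. Its mean deviation was 0.31, against 0.01, 0.19 and 0.07. The fasted control libraries were the closest together, from −0.18 to 0.02. Among them S41, at −0.18, was the lowest for 20 of 34 members, against 23.5% of all genes. By group, these deviations averaged −0.05 ± 0.09 in fasted controls, 0.11 ± 0.36 in fasted LKO livers, −0.20 ± 0.19 in refed controls and 0.14 ± 0.13 in refed LKO livers (SD, n = 4).

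**Figure D1:**
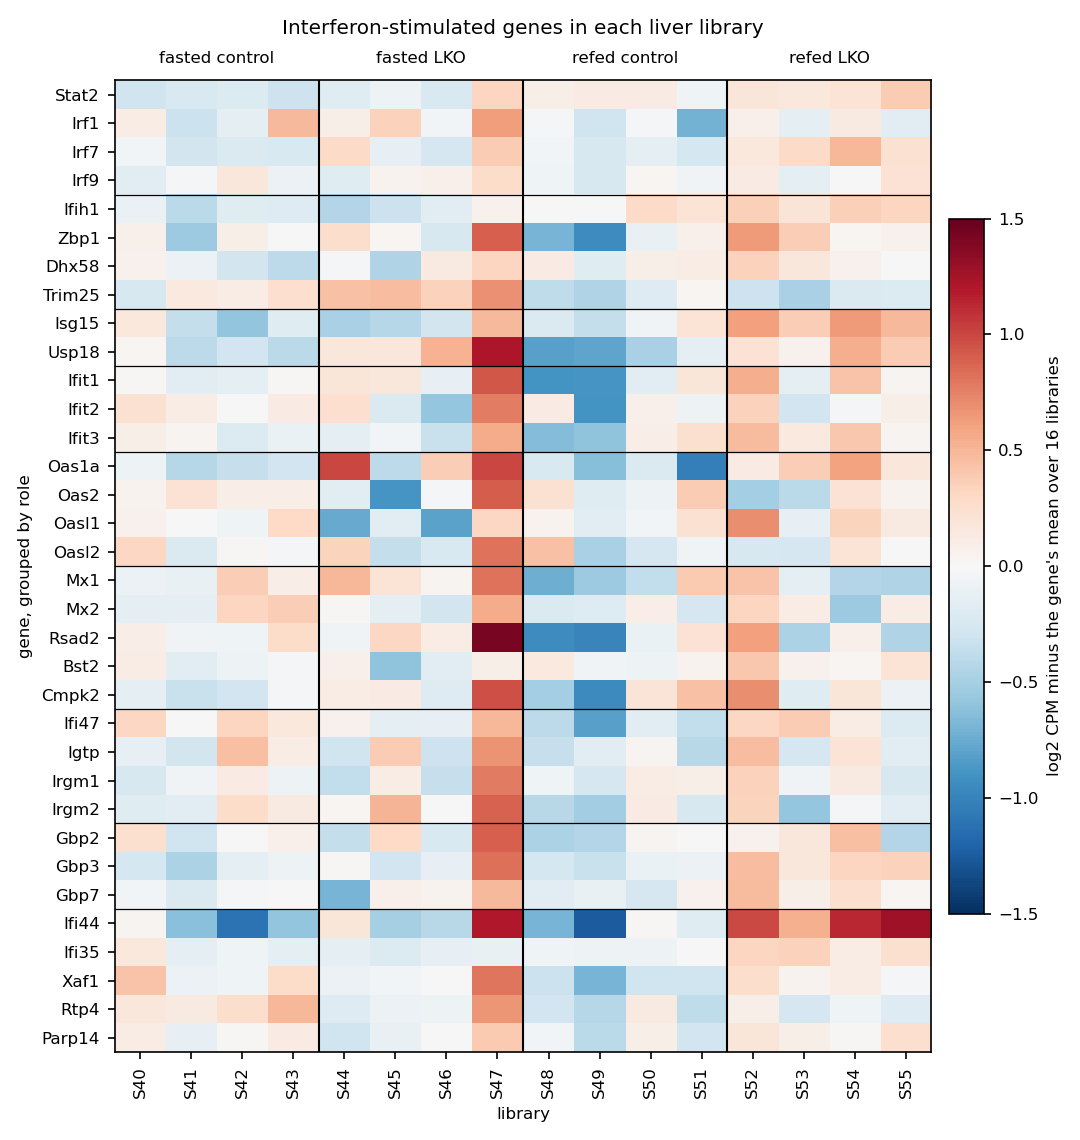
Heat map of the 34 members (rows, grouped by role) in the 16 libraries (columns, by group), as log2 CPM minus the gene's mean over all libraries, with red for higher and blue for lower values. The column of S47 is red in nearly every row, S49 holds the darkest blue cells, and the 4 refed LKO libraries are red together for Isg15, Ifi44 and Ifi35.

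Markers of other cells were read beside this. In S47 the summed level of the T cell list (9 of 10 genes tested) was 30.3 CPM, against 14.7 to 22.6 CPM in the other fasted LKO libraries, 14.7 to 21.5 in fasted control, 7.44 to 25.1 in refed controls and 12.1 to 18.5 in refed LKO livers. The recruited macrophage or monocyte list (9 of 9 tested) summed to 149 CPM in S47 and to 89.8 to 137 CPM in the rest of its group. Its highest sum of the 16 libraries was 175 CPM, in the refed control library S49. The Kupffer cell list (10 of 10 tested) was 505 CPM in S47, within the 414 to 619 CPM of its group, and reached its highest sum, 1011 CPM, in S49, the library in which the members were lowest. The plasmacytoid dendritic cell list, a type known for making interferon, summed to 7.02 CPM in S47 and to 5.49 to 8.04 CPM over the group, with 2 of its 7 genes passing the filter. It summed to 8.47 to 12.3 CPM in fasted controls, 9.03 to 9.65 in refed controls and 7.59 to 10.6 in refed LKO livers. Of the 2 genes, Tcf4 was called lower in fasted LKO by edgeR, DESeq2 and limma-voom, and the other was higher on average. Over all genes edgeR called 12.2% there. The conventional dendritic cell list (2 of 6 tested) was at its highest of the 16 libraries in S47, at 10.75 CPM, against 7.58 to 9.93 CPM in the rest of its group. The part of these cells in the members' levels was not tested.

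In fasted livers, LKO against control, the members were higher on average with S47 in the group and not without it. Of the 34, 26 had a positive log2 fold change and the median was 0.18, against 0.02 over all genes. Usp18, Oas1a and Trim25 were called, all higher in LKO, which is 8.82% of the members. Over all genes 12.2% were called, 5.75% higher and 6.48% lower, and 52.5% had a positive log2 fold change, so the members' share of calls was below the background. For 2 members all 4 LKO libraries lay above all 4 control libraries and for 0 below, against 8.3% and 8.57% of all genes. The count of calls was 1 without S41, S42 or S44, where 8.91%, 8.51% and 7.14% of all genes were called. Without S47 the median fell to −0.09, 16 of 34 were positive, and the calls were Usp18 higher and Oasl1 lower, where 11.9% of all genes were called.

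In refed livers the members leaned the same way in more libraries. Of the 34, 31 were higher in LKO on average, with a median log2 fold change of 0.29 against −0.01 over all genes, where 47.8% were positive. Usp18, Ifi44, Irf7 and Ifi35 were called, all higher in LKO. That is 11.8% of the members, against 3.63% of all genes (2.28% higher and 1.35% lower). For 9 members every LKO library lay above every control library, namely Usp18, Ifi44, Irf7, Ifi35, Isg15, Oas1a, Xaf1, Gbp3 and Stat2, and for 0 members below, against 6.7% and 5.03% of all genes. The count of calls moved with single libraries. It was 0 without S48, S49 or S52, where 1.33%, 2.68% and 2.99% of all genes were called. It was 1 without S50, S53, S54 or S55, where 2.04%, 2.03%, 1.99% and 1.53% of all genes were. It was 8 without S47, a fit in which Gbp3, Ifi47, Isg15 and Xaf1 joined the 4 and 4.08% of all genes were called. The authors' deposited table lists 9 members at an adjusted p under 0.05 in this comparison, all higher in LKO: the same 4 and Isg15, Ifi47, Oas1a, Xaf1 and Gbp3. The share of all genes under 0.05 there was not computed. DESeq2, run here on the same comparison, called 7 members and 6.38% of all genes.

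Markers of other cells were compared between the refed groups as well. In refed LKO edgeR, DESeq2 and limma-voom all called Ly6c2 higher, 1 of 9 recruited macrophage or monocyte genes (5 higher and 4 lower). All 3 also called Clec4g higher, 1 of 8 sinusoidal endothelium genes (5 higher and 3 lower). Of 6 B and plasma cell genes (5 higher and 1 lower), all 3 called Jchain higher, as in fasted LKO. In both states edgeR and DESeq2 called Derl3 lower. Over all genes edgeR called 3.63% in refed LKO. All 10 Kupffer cell genes were lower in refed LKO on average (median log2 fold change −0.60), with 0 called by edgeR, DESeq2 or limma-voom and 5 at an unadjusted p under 0.05. Their summed level was 604 ± 320 CPM in refed controls and 367 ± 63.0 CPM in refed LKO livers (SD, n = 4), and the ranges of 296 to 1011 and 308.5 to 448 CPM overlapped. Of 9 T cell genes, 7 were higher and 2 lower in refed LKO (median 0.78, from −0.57 to 2.08). Of these, 0 were called by edgeR or limma-voom, 1 by DESeq2 (Cd8a, higher), and 4 had an unadjusted p under 0.05. The T cell list summed to 14.8 ± 7.38 CPM in refed controls and 14.6 ± 3.03 CPM in refed LKO livers (SD, n = 4). In fasted LKO 7 of the 9 T cell genes were higher too and 2 lower (median 0.81). Of these, 0 were called by edgeR or limma-voom, 2 by DESeq2 (Lck higher and Cd4 lower), and 4 had an unadjusted p under 0.05. Over all genes, 3868 of 14488 had such a p in fasted LKO and 2672 in refed LKO. The 1 NK cell gene tested was higher by 1.06 in refed LKO on the log2 scale and was not called by any of the 3 tools. The part of these cells in the members' refed difference was not tested.

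**Figure D2:**
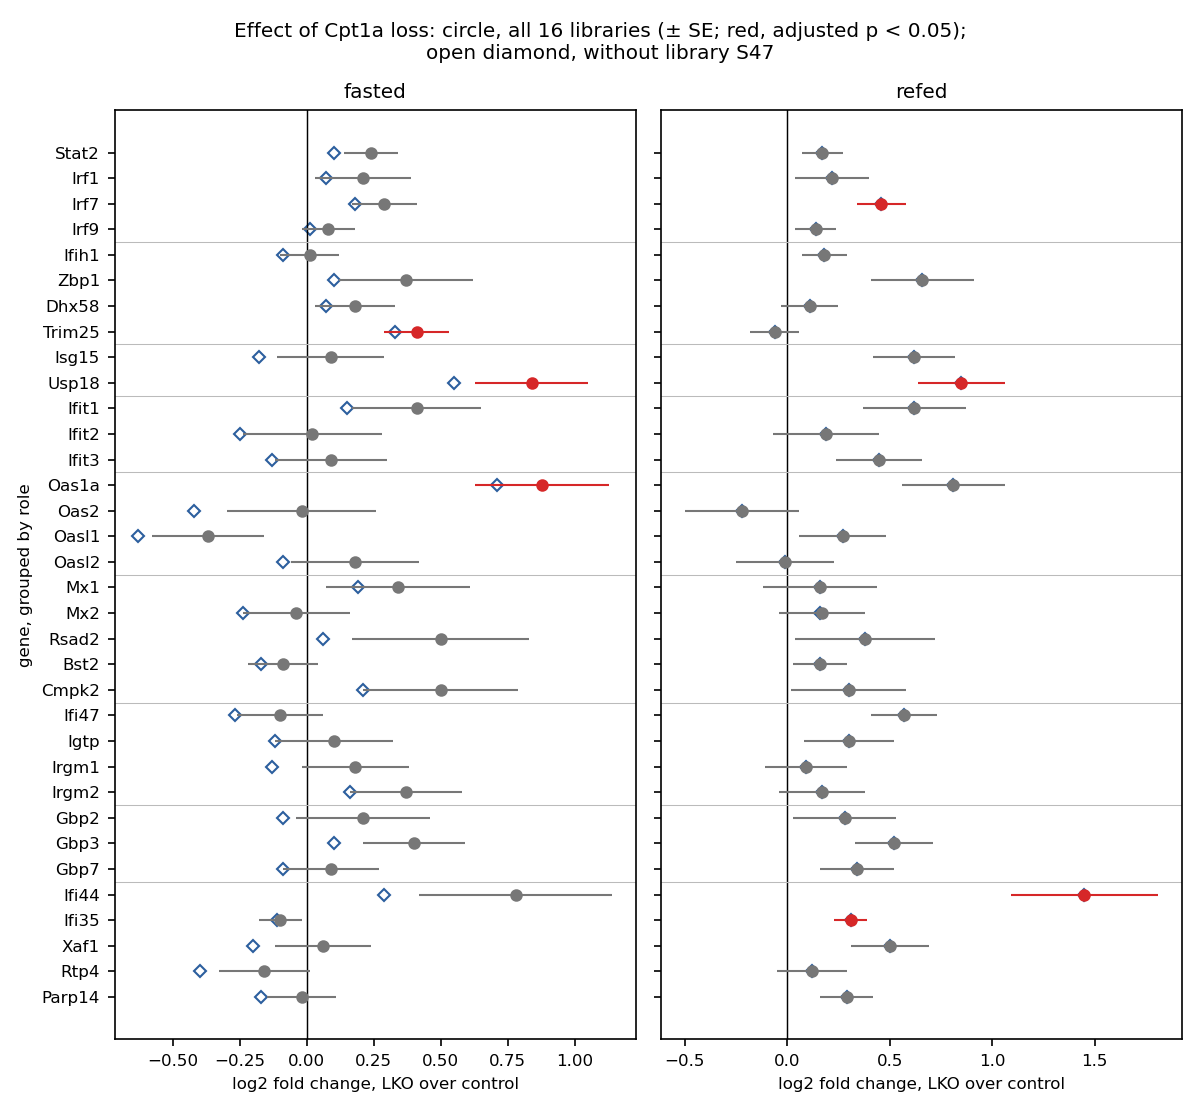
Log2 fold change of LKO over control for each of the 34 members (rows, grouped by role) in fasted (left) and refed livers (right), as circles with the SE from the fit of 16 libraries, red where called, and as open diamonds from the fit without S47. In the fasted panel most diamonds sit to the left of their circles (median 0.18 with S47 and −0.09 without), and in the refed panel they coincide.

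Refeeding of control livers gave few calls among the members. Stat2 and Ifih1 rose and Ifi47 fell, which is 8.82% of the 34 against 15.4% of all genes (7.79% higher and 7.65% lower). The median log2 fold change was −0.16 and 10 of 34 were positive, against 0.01 and 51.1% over all genes. Refed and fasted libraries did not overlap for 2 members that were higher and 2 that were lower, where 10.4% and 10.1% of all genes did not. Counts by library left out ran from 1 to 5 calls. There was 1 without S40, S42, S43 or S49, where 8.28%, 12.7%, 10.2% and 12.2% of all genes were called. There were 5 without S47, when Rtp4 and Xaf1 also fell and 15.6% of all genes were called.

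In LKO livers, Ifih1, Ifi35 and Isg15 rose on refeeding and Trim25 fell. These are 11.8% of the members, against 18.1% of all genes (9.28% higher and 8.78% lower). The median was −0.05 with 14 of 34 positive, against −0.02 and 47.9% over all genes, and 2 members higher and 1 lower did not overlap between the states, against 10.6% and 9.95%. Without S47 the median became 0.18, 27 of 34 were positive, and 8 members were called where 15.7% of all genes were: Gbp3, Ifi35, Ifi44, Ifih1, Isg15, Oasl1 and Stat2 rose and Trim25 fell. The effects of refeeding in LKO and of LKO in the fasted state share the fasted LKO libraries, and both medians changed sign without S47.

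Whether the LKO effect differed between the feeding states was tested as an interaction. By edgeR 0 members were called, against 0.538% of all genes. An unadjusted p under 0.05 was found for 4 of 34 members and for 2397 of 14488 genes. DESeq2 called 1, Ifi35, against 3.05% of all genes, and limma-voom 0, against 0.552%. The median difference, refed minus fasted, was 0.17 with 23 of 34 positive, against −0.01 and 48.5% over all genes, and became 0.35 with 32 of 34 positive without S47, again with 0 calls.

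**Figure D3:**
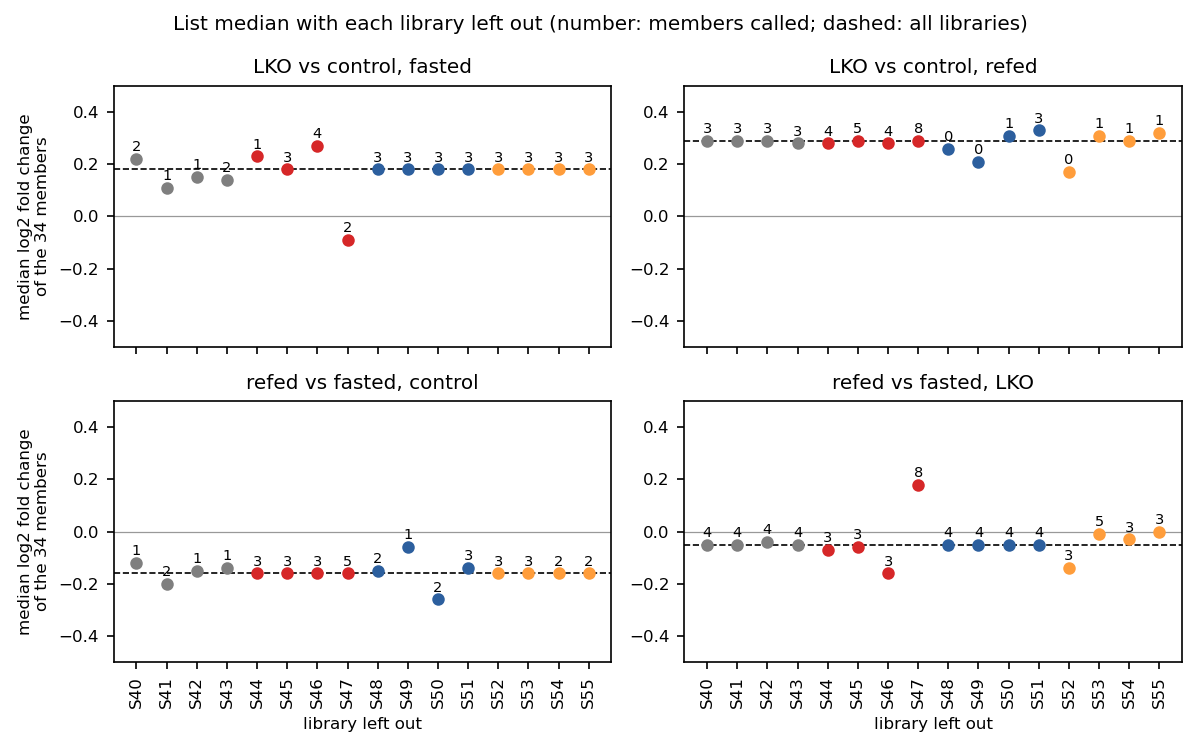
Median log2 fold change of the 34 members (y axis) when each of the 16 libraries is left out (x axis), in 4 comparisons, with the number of members called above each point and the value from all libraries dashed. Grey points are fasted control, red fasted LKO, blue refed control and orange refed LKO libraries. Leaving out S47 turned the sign of the median in the fasted LKO comparison (0.18 to −0.09) and in LKO refeeding (−0.05 to 0.18), while the refed LKO median stayed between 0.17 and 0.33.

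Among the transcription factors, Stat2 encodes the STAT that works only within the type I and III response. Stat2 (mm39 chromosome 10 from 128106428 to 128128718, plus strand) stood at 54.8, 57.4, 58.5 and 54.2 CPM in fasted controls, 59.5, 63.6, 57.6 and 84.5 in fasted LKO livers, 71.6, 73.5, 73.1 and 64.3 in refed controls and 76.7, 75.2, 77.3 and 87.9 in refed LKO livers. Every refed control library lay above every fasted control library, and every refed LKO library above every refed control library. The rise on refeeding of controls was called (log2 fold change 0.33, SE 0.10, adjusted p = 0.0403). The call was lost without S40, S41, S42, S43, S48, S49, S50 or S54, with adjusted p from 0.0514 to 0.103. In LKO the change was 0.26 (adjusted p = 0.0935) and, without S47, 0.40 (adjusted p = 0.00317).

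Irf7 encodes the factor that amplifies interferon production. Irf7 (chromosome 7 from 140842619 to 140846394, minus strand) held 75.1, 63.6, 66.4 and 65.7 CPM in fasted controls, 94.2, 71.1, 64.7 and 100.8 in fasted LKO livers, 75.1, 65.3, 70.6 and 64.4 in refed controls and 86.1, 94.4, 108.8 and 90.3 in refed LKO livers. The refed LKO libraries were all above the refed controls, while the fasted LKO libraries split, with S44 and S47 high. In refed livers Irf7 was 1.38-fold higher in LKO (log2 fold change 0.46, SE 0.12, adjusted p = 0.0493). That value lies at the threshold: it was lost without each of S40 to S43 and S48 to S55 (adjusted p 0.0531 to 0.134), with upper quartile scaling (0.0561), without a filter (0.0506) and with the 5 CPM filter (0.0505). Irf7 overlaps Phrf1 on the other strand, and whether the counting used strand is not given in the sources used here. Irf1, a factor of the gamma response, and Irf9, the DNA-binding part of the STAT complex, were not called in any comparison. Their largest log2 fold changes were −0.30 for Irf1 and 0.14 for Irf9.

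Of the nucleic acid sensors, Ifih1 encodes MDA5, which binds long double-stranded RNA. Ifih1 (chromosome 2 from 62426142 to 62476599, minus strand) stood at 21.3, 17.2, 20.2 and 19.9 CPM in fasted controls, 16.8, 18.2, 20.5 and 23.8 in fasted LKO livers, 22.8, 22.9, 27.9 and 26.2 in refed controls and 29.3, 26.0, 29.2 and 28.5 in refed LKO livers. In each genotype all refed libraries were above all fasted ones. The rise was 0.51 on the log2 scale in LKO (SE 0.11, adjusted p = 0.00358), with adjusted p up to 0.0142 over the alternatives. In controls it was 0.35 (SE 0.11, adjusted p = 0.0388), and this call was lost without S40, S41, S42, S43, S50, S51 or S55 (adjusted p 0.0507 to 0.125). Between genotypes Ifih1 was not called (0.01 fasted and 0.18 refed).

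Trim25, the ubiquitin ligase that helps activate RIG-I, moved the other way with feeding. Trim25 (chromosome 11 from 88890202 to 88911119, plus strand) held 50.8, 66.6, 65.1 and 71.8 CPM in fasted controls, 81.8, 82.8, 76.1 and 96.8 in fasted LKO livers, 46.3, 43.9, 52.7 and 61.1 in refed controls and 48.5, 42.8, 51.9 and 51.98 in refed LKO livers. The fasted LKO libraries were the 4 highest of the 16, and they did not overlap with either fasted control or refed LKO. The fall on refeeding of LKO livers was −0.79 (SE 0.12, adjusted p = 3.94e-04) and kept its call under every alternative (adjusted p up to 0.00188). The fasted rise in LKO was 0.41 (SE 0.12, adjusted p = 0.0343) and was lost without S40, S41, S42, S44 or S47 (adjusted p 0.0565 to 0.107), without a filter and with only the groups compared. In controls refeeding gave −0.32 (adjusted p = 0.0834), which was called without S40 or S51, and the difference between genotypes in this response was not called (−0.47, adjusted p = 0.175). Zbp1, a sensor of Z-form nucleic acid, and Dhx58, which encodes the RIG-I-like protein LGP2, were not called. Zbp1 was lowest in a refed control library at 8.07 CPM and highest in S47 at 28.7 CPM, and its refed LKO change was 0.66 (SE 0.25, adjusted p = 0.163).

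The ISG15 system couples a ubiquitin-like protein, Isg15, to targets, and Usp18 encodes the protease that removes it and also restrains the type I receptor. With all libraries Usp18 was called between genotypes in both states by edgeR, DESeq2 and limma-voom. Usp18 (chromosome 6 from 121222865 to 121247876, plus strand) held 20.9, 15.5, 16.8 and 15.4 CPM in fasted controls, 23.0, 23.0, 29.4 and 47.6 in fasted LKO livers, 11.6, 11.8, 14.6 and 18.5 in refed controls and 23.8, 21.3, 29.9 and 26.6 in refed LKO livers. In both states every LKO library was above every control library. The fasted difference was 0.84 (SE 0.21, adjusted p = 0.0171), or 1.78-fold, and without S47, the highest library, it was 0.55 (adjusted p = 0.0426). It kept its call under every alternative, with adjusted p up to 0.0489. The refed difference was 0.85 (SE 0.21, adjusted p = 0.0383), or 1.80-fold, and it lost its call without S48, S49, S50, S52, S53, S54 or S55 (adjusted p 0.0505 to 0.113). The 2 differences did not differ from each other by test (0.01, SE 0.30, adjusted p = 0.991).

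Isg15 (chromosome 4 from 156283912 to 156285253, minus strand) stood at 20.2, 14.1, 12.0 and 15.9 CPM in fasted controls, 12.9, 13.4, 14.9 and 25.4 in fasted LKO livers, 15.5, 14.1, 17.4 and 20.9 in refed controls and 27.6, 23.4, 28.1 and 25.3 in refed LKO livers. The refed LKO libraries were above all refed controls, and S47 was the only fasted LKO library at their level. The rise on refeeding of LKO livers was called (0.65, SE 0.20, adjusted p = 0.0308). Without S47 it was 0.93 (adjusted p = 0.00139), and without S44, S45, S46, S52, S54 or S55 it was lost (adjusted p 0.0572 to 0.0963). The refed LKO difference of 0.62 (SE 0.20) missed the threshold (adjusted p = 0.0929) and was called without S47 (adjusted p = 0.0266), by DESeq2 and with only the groups compared.

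**Figure D4:**
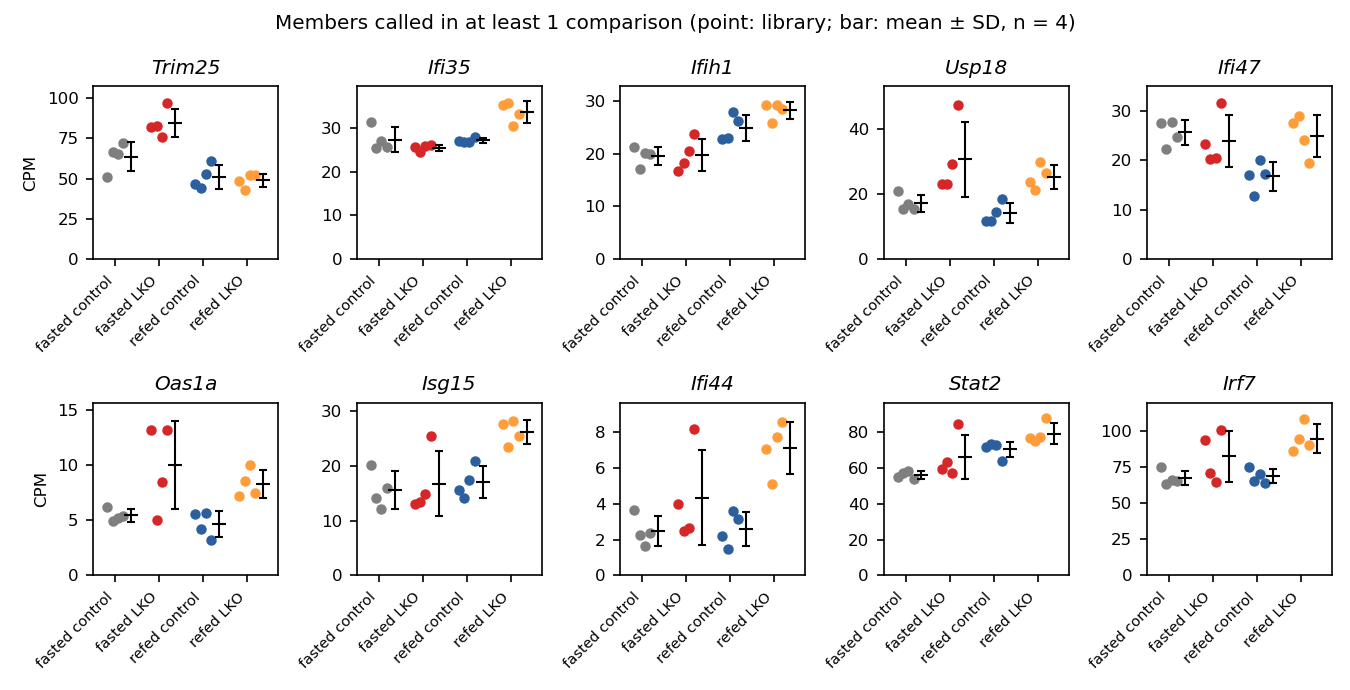
CPM (y axis, from 0) of the 10 members called in at least 1 comparison, in the 4 groups (x axis), with a point for each library and the mean ± SD (n = 4) as a bar. Usp18 shows both LKO groups above their controls, Trim25 shows fasted LKO on top (76.1 to 96.8 CPM), and Ifi44 shows refed LKO at 5.10 to 8.53 CPM with S47 at 8.14 CPM among lower fasted LKO libraries.

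The IFIT proteins, which bind viral RNA that lacks host cap marks, had 0 of 3 members called in any comparison by edgeR, DESeq2 or limma-voom. In refed livers all 3 were higher in LKO on average, at 0.62 for Ifit1 (adjusted p = 0.182), 0.45 for Ifit3 (adjusted p = 0.248) and 0.19 for Ifit2 (adjusted p = 0.764). There 2 of the 3 had an unadjusted p under 0.05, against 2672 of 14488 genes. Ifit1 ran from 7.99 to 16.8 CPM in refed control and from 13.5 to 21.6 CPM in refed LKO, so the groups overlapped. In S47 it reached 28.4 CPM. Ifit3 has a near-identical copy, Ifit3b, and its counts are uncertain.

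The OAS proteins make the 2′-5′ oligoadenylates that switch on RNase L, or, in Oasl1, resemble those enzymes. Oas1a (chromosome 5 from 121034319 to 121045584, minus strand) held 6.26, 4.90, 5.18 and 5.44 CPM in fasted controls, 13.2, 5.04, 8.52 and 13.2 in fasted LKO livers, 5.62, 4.25, 5.69 and 3.26 in refed controls and 7.21, 8.57, 10.01 and 7.45 in refed LKO livers. The fasted LKO libraries were spread, with S45 inside the control range and S44 and S47 far above it, while the refed LKO libraries all exceeded the refed controls. The fasted difference was called (0.88, SE 0.25, adjusted p = 0.0307), but not without S41, S42, S43, S44 or S47 (adjusted p 0.0668 to 0.111), nor under limma-voom (0.0737) or with only the groups compared (0.0745). The refed difference of 0.81 (SE 0.25) did not pass by edgeR (adjusted p = 0.088) and was called without S45 (adjusted p = 0.0299) and by DESeq2. Oas1a has close copies such as Oas1g and its counts are uncertain. Oas2 and Oasl2 had log2 fold changes between −0.28 and 0.18 in the 4 group comparisons. Oasl1 was lower in fasted LKO at −0.37 (adjusted p = 0.29), which became −0.63 (adjusted p = 0.0378) without S47. On refeeding of LKO livers Oasl1 was higher by 0.58 (SE 0.21, adjusted p = 0.0703), a difference called without S47 (0.84, adjusted p = 0.00657) or S53 and by DESeq2 and limma-voom.

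The inhibitors of viral replication and release, Mx1, Mx2, Rsad2, Cmpk2 and Bst2, had 0 of 5 members called in any comparison by the same 3 tools. On refeeding of LKO livers 1 had an unadjusted p under 0.05, against 4492 of 14488 genes. All 5 were higher in refed LKO on average, between 0.16 and 0.38. Rsad2, which encodes viperin, and Cmpk2, its genomic neighbour, had the widest spread. Rsad2 was lowest in a refed control library at 5.74 CPM and highest in S47 at 30.6 CPM, and its fasted difference of 0.50 (SE 0.33) became 0.06 without S47. Bst2, the most abundant member, held 158 to 191 CPM in fasted controls, 117 to 189 in fasted LKO livers, 169 to 197 in refed controls and 181 to 234 in refed LKO livers, with 0.16 (SE 0.13) for LKO in refed livers.

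The immunity-related GTPases act on vacuoles and are classic targets of interferon gamma. Ifi47 (chromosome 11 from 48967414 to 48987801, plus strand) held 27.6, 22.4, 27.8 and 24.8 CPM in fasted controls, 23.2, 20.3, 20.5 and 31.5 in fasted LKO livers, 17.0, 12.7, 20.0 and 17.2 in refed controls and 27.6, 28.9, 24.0 and 19.4 in refed LKO livers. The refed controls were the lowest group and did not overlap with the fasted controls. Refeeding lowered it in controls by −0.61 (SE 0.16, adjusted p = 0.0186), a call lost without S40 (0.058) or S49 (0.054), and in LKO livers the change was 0.06 (adjusted p = 0.823). The difference between these responses was not called (0.68, SE 0.23, adjusted p = 0.153). Igtp, Irgm1 and Irgm2 were not called, with log2 fold changes between −0.46 and 0.37. Igtp and Irgm2, whose spans overlap on the same strand, both peaked in S47, at 69.2 and 84.5 CPM.

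The guanylate-binding proteins, GTPases that coat such vacuoles, had 0 of 3 members called with all libraries by any of these tools. Between genotypes 1 had an unadjusted p under 0.05 in each state, against 3868 of 14488 genes fasted and 2672 refed. Gbp3 came closest between genotypes, at 7.38 to 8.76 CPM in refed controls and 10.4 to 12.8 CPM in refed LKO livers, groups that did not overlap (0.52, SE 0.19, adjusted p = 0.141). Without S47 the same log2 fold change had an SE of 0.11 and was called (adjusted p = 0.0186), as it was with only the groups compared. Gbp2 and Gbp7 stood at 0.28 and 0.34 in refed LKO and were not called.

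Of the remaining members, Ifi44, whose protein restrains viral growth, had the largest genotype difference of all 34. Ifi44 (chromosome 3 from 151436559 to 151455597, minus strand) held 3.63, 2.28, 1.64 and 2.35 CPM in fasted controls, 3.99, 2.49, 2.63 and 8.14 in fasted LKO livers, 2.17, 1.49, 3.58 and 3.12 in refed controls and 7.01, 5.10, 7.73 and 8.53 in refed LKO livers. Every refed LKO library was above every refed control library, and in fasted LKO only S47 reached that level. The refed difference was 1.45 (SE 0.36, adjusted p = 0.0348), or 2.72-fold, and it was lost without S48, S49, S52, S54 or S55 (adjusted p 0.0554 to 0.0998). These are low counts, with 26 reads in the lowest library.

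Ifi35, which encodes a leucine zipper protein that partners NMI, was the member that S47 left nearly alone. Ifi35 (chromosome 11 from 101339233 to 101349524, plus strand) held 31.4, 25.5, 26.9 and 25.6 CPM in fasted controls, 25.6, 24.4, 25.8 and 26.0 in fasted LKO livers, 27.0, 26.8, 26.8 and 28.0 in refed controls and 35.4, 35.7, 30.4 and 33.2 in refed LKO livers. Refed LKO stood above both refed control and fasted LKO without overlap. The rise on refeeding of LKO livers was 0.40 (SE 0.08, adjusted p = 0.00207) and kept its call under every alternative (adjusted p up to 0.00858). The refed genotype difference was 0.31 (SE 0.08, adjusted p = 0.0366) and was lost without S48, S49, S50, S52, S53 or S55 (adjusted p 0.0714 to 0.104), without a filter (0.0739) and with only the groups compared (0.0585). The interaction was 0.41 (SE 0.11, adjusted p = 0.0781).

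Xaf1, Rtp4 and Parp14 were not called by edgeR with all libraries. Xaf1, whose protein is tied to cell death, was lowest in refed controls, at 5.95 to 7.81 CPM, and did not overlap there with fasted controls (9.05 to 12.9 CPM) or refed LKO (9.40 to 11.5 CPM). Its adjusted p was 0.0541 for refeeding of controls and 0.157 for LKO in refed livers. Without S47 these became 0.0108 and 0.0444. DESeq2, the 5 CPM filter and the fit of only the groups compared also called Xaf1 and Rtp4 lower on refeeding of controls, as did the fits without S41 for Xaf1 and without S47 or S50 for Rtp4. The span of Rtp4 overlaps that of Masp1, a gene of 111 CPM on the other strand, so the counts of Rtp4 are uncertain.

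The members varied together within groups. After each group's mean was taken off, the mean pairwise Pearson's r of log2 CPM was 0.47 among the 34 members over 16 libraries, against 0.001 among all genes tested. Without S47 it was 0.21 over 15 libraries, so much of this rested on that library. The ISG15 pair (0.89 with S47 and 0.76 without), the IFIT genes (0.75 and 0.63) and the immunity-related GTPases (0.69 and 0.55) were the tightest sets. With all libraries the closest pairs included Ifit1 with Cmpk2 (r = 0.96) and Igtp with Irgm2 (0.90), whose spans overlap. Ifi35 had the lowest mean r with the other members (0.13), then Oas1a (0.25), and Gbp3 the highest (0.64). All points share their libraries and depth, and no test was made.

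By median, presence of an ISRE match did not separate the members on these measures. The 14 with a match had a median factor of 1.65 in S47 over the rest of its group, and the 12 without had 1.64. In refed livers the medians for LKO were 0.32 and 0.29 on the log2 scale. The highest values there were 0.81 and 1.45, and edgeR called 0 of the 14 and 3 of the 12, against 3.63% of all genes.

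Other genes of the pathway were read from lists. Of 9 interferon genes listed, Ifng had 13 counts and Ifnk 9 over the 16 libraries, and neither passed the filter. Of 5 receptor genes tested, 1 rose in fasted LKO (Ifngr2, a chain of the gamma receptor, 0.50, adjusted p = 0.0422), 2 fell on refeeding in controls and 3 in LKO. Over all genes 12.2%, 15.4% and 18.1% were called in these comparisons. In refed LKO 0 receptor genes were called and 1 had an unadjusted p under 0.05, against 2672 of 14488 genes. Ifngr2 fell by 0.77 in each genotype (adjusted p = 0.00453 and 0.00268), and Ifnar2, a chain of the type I receptor, by 0.50 in controls (adjusted p = 0.00297) and 0.41 in LKO (adjusted p = 0.00632). Ifnar1 fell in LKO (−0.47, adjusted p = 0.027). The Ifngr2 call in fasted LKO was lost without S40, S41, S42, S44, S46, S47, S50, S53 or S55 (adjusted p up to 0.112), and the Ifnar1 call without S44, S46, S52 or S55 (up to 0.091).

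Of 6 inhibitors tested, Socs1, a feedback inhibitor of JAK kinases, was called higher in refed LKO (1.40, SE 0.30, adjusted p = 0.0179). Socs1 held 0.32, 0.58, 0.44 and 0.34 CPM in refed controls and 1.38, 1.31, 1.11 and 0.78 CPM in refed LKO livers, which did not overlap, at very low levels. The call was lost without S48 (adjusted p = 0.0646). Socs1 fell on refeeding of controls (−1.51, adjusted p = 0.00408). Of the 6 inhibitors, 1 was called in fasted LKO, 3 on refeeding of controls and 2 on refeeding of LKO livers, all lower. Over all genes 12.2%, 15.4% and 18.1% were called in these comparisons, and 3.63% in refed LKO. In fasted livers 1 inhibitor did not overlap between genotypes, Irf2, at 39.5 to 48.6 CPM in controls and 25.5 to 36.7 CPM in LKO. Of 12 sensing genes, 1 fell in fasted LKO (Irf5, a factor downstream of Toll-like receptors, −0.70, adjusted p = 0.0198, and 0.0678 with only the groups compared). In refed LKO 0 were called and 2 had an unadjusted p under 0.05, against 2672 of 14488 genes. On refeeding, 3 of the 12 sensing genes were called in controls and 2 in LKO, all lower, against 15.4% and 18.1% of all genes. Of these, Myd88, the Toll-like receptor adaptor, fell by 0.53 in controls and by 0.73 in LKO (adjusted p = 0.00294 and 1.73e-04).

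The list of 81 other interferon-induced genes had 8 called in refed LKO, all higher (9.88% against 3.63% of all genes), and 10 in fasted LKO, 7 higher and 3 lower (12.3% against 12.2%). The refed 8 were Psmb9, Ube2l6, Tap1, Ifi27, Tap2, Parp10, Psme1 and Nmi, and 4 of them, Psmb9, Tap1, Tap2 and Psme1, make or load peptides for MHC class I. Psmb9, an immunoproteasome subunit, held 24.2, 20.7, 20.0 and 25.1 CPM in refed controls and 52.4, 57.4, 42.6 and 47.4 CPM in refed LKO livers. That is a 2.22-fold difference without overlap (log2 fold change 1.15, SE 0.13, adjusted p = 2.31e-04), larger in log2 terms than for any member but Ifi44. Ube2l6, the conjugating enzyme for ISG15, held 85.0, 80.3, 76.9 and 78.2 CPM in refed controls and 126, 148, 127 and 143 CPM in refed LKO livers (0.76, SE 0.10, adjusted p = 5.07e-04). Both calls held under every alternative (adjusted p up to 0.00196 and 0.00311). Psmb9 and Tap1 overlap at one end on opposite strands. The mean of Tap1 went from 58.5 CPM in fasted to 30.2 CPM in refed controls, and from 80.1 to 49.5 CPM in LKO livers. Ube2l6 was also higher in fasted LKO (0.35, adjusted p = 0.0248), a call lost without S42, S43, S46 or S47 (up to 0.0956). Nmi, which encodes the partner of IFI35, rose on refeeding of LKO livers (0.37, adjusted p = 0.00478), as Ifi35 did.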

How the data were processed

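Polyadenylated RNA was taken from total liver RNA and libraries were made with random hexamers and dUTP, a method that marks strand, per the labels' protocols. Reads were aligned with HISAT2 2.0.5 to mm39, per the submitters' processing notes. The counting tool, its use of strand and the annotation are not given in the sources used here. The authors deposited 4 tables, one for each pair of groups, with raw counts per gene and library. The deposited tables also hold the group mean of each gene after division by size factors (a normalized signal), the authors' log2 fold changes, p-values and adjusted p-values, and gene lengths in bases. Another 64 per-library columns of normalized values were left unused.

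Count columns are named S40 to S55 and match none of the titles. A library is in 2 tables, and the group common to both tables gave its group but no replicate number. The deposited group means equal the means of the counts of these columns divided by median-of-ratios size factors (8 of 8 recomputed). Joining on the gene identifier gave 25803 genes, with 0 counts that differed between tables, and a gene missing from the tables of a library was set to 0 there (3148 genes).

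Counts were fitted in R 4.3.3 with edgeR 4.0.16 (filterByExpr, TMM factors from 0.941 to 1.07, glmQLFit on the 4 groups as one factor, glmQLFTest for 5 contrasts). The script was tested on simulated data. An SE is the log2 fold change divided by the square root of F, and the biological coefficient of variation was 0.185. CPM are counts per M (mega) counts of the TMM-scaled library total, RPKM are CPM per kilobase of the deposited gene length, and log2 CPM used a prior count of 2. Alternatives were upper quartile and RLE scaling, no filter, a filter at a mean of 5 CPM, DESeq2 1.42.0, limma-voom (limma 3.58.1), only the groups compared, and leaving out each of the 16 libraries.

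The members, the role groups and the other lists were chosen with earlier results of these data known. Values in every library are given for members called in at least 1 contrast, and other members are given by range. Promoter windows are RefSeq's on GRCm38.p6, and gene coordinates are those of the deposited tables. The kinase and signalling genes of the pathway lists are not reported here.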

Additional observations from a re-analysis of the deposited data

Results flagged for a closer look

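Isg15 in fasted LKO was 25.4 CPM in S47 against 12.9 to 14.9 CPM in the other three, and Stat2 in refed LKO was 87.9 CPM in S55 against 75.2 to 77.3 CPM. In each the gap to the nearest library was a larger part of the group's range (0.841 and 0.835) than Dixon's 95% critical value for 4 values. These were 2 of 44 groups examined, and chance marks about 1 in 20.

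The LKO effect differed between refed and fasted livers, by the interaction term in edgeR, for 3 genes of the list of other interferon-induced genes. The difference, refed minus fasted, was 0.88 for Psmb10, an immunoproteasome subunit (adjusted p = 0.0168), 0.90 for Psmb9 (adjusted p = 0.0426) and 0.64 for Ifitm2, a membrane inhibitor of viral entry (adjusted p = 0.0447). Psmb10 was lower in fasted LKO (−0.62, adjusted p = 7.96e-04) and not called in refed LKO (0.25, adjusted p = 0.152). Ifitm2 was lower in LKO on average in both states. Its means were 138.9 CPM in control and 80.7 CPM in LKO livers fasted, and 102.5 and 92.7 CPM refed. Psmb10 kept its interaction call in 16 of 16 fits that left out a library, Psmb9 lost it in 11 (adjusted p up to 0.0953) and Ifitm2 in 14 (up to 0.0965).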

How the results depend on the processing

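No paired analysis was possible because the count columns carry no replicate number. The number of members called between genotypes was 3 in fasted livers, 1 with only the groups compared and 1 to 4 with a library left out. Over all genes 12.2% were called there, 9.03% with only the groups compared and 7.14% to 13.5% with a library left out. In refed livers the number of members called was 4, with 7 under DESeq2, 2 with the 5 CPM filter, 2 without a filter and 0 to 8 with a library left out. Over all genes 3.63% were called there, 6.38% under DESeq2, 4.96% with the 5 CPM filter and 1.85% without a filter. With a library left out 1.33% to 4.08% were called. The 5 CPM filter left 30 members, and Ifi44, at a mean of 4.12 CPM, was not tested under it. For refeeding of controls 3 members were called, with 5 under DESeq2, the 5 CPM filter or only the groups compared. There was 1 without a filter and there were 1 to 5 with a library left out. Over all genes 15.4% were called there, and 17.7%, 24.2% and 14.5% in those fits in turn. Without a filter 6.52% were, and with a library left out 8.28% to 16.8%. For refeeding of LKO livers 4 members were called, with 3 to 8 with a library left out, against 18.1% and 12.2% to 18.5% of all genes. The interaction count was 0, with 1 under DESeq2 and 0 in every leave-one-out fit. Over all genes these shares were 0.538%, 3.05% and 0.0542% to 1.91%. The median log2 fold change of the members ranged with a library left out from −0.09 to 0.27 for LKO in fasted livers, 0.17 to 0.33 in refed livers, −0.26 to −0.06 for refeeding of controls, −0.16 to 0.18 in LKO and 0.06 to 0.35 for the interaction. The 14 member calls gave 321 values under the alternatives: 247 kept the call, 74 kept the direction but not the call, and 0 reversed. All-gene medians moved by at most 0.022 between scalings. The cause of these moves was not tested. Depth limits Mx1, Ifi44, Ifit2 and Oas2 most, whose lowest counts were 19, 26, 34 and 39.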
